A study of Mus musculus with 10 samples.

Results

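The replication-dependent histone genes supply the histones that package newly made DNA, and they were described here in 10 RNA-seq libraries of mouse microglial cells. A gene was a member if its symbol began with Hist1h, Hist2h, Hist3h or Hist4h, which took in 68 of the 24411 genes in the count tables and used no measured value. The members were 6 linker histone H1 genes, 18 H2A, 19 H2B, 12 H3 and 13 H4 genes. By position they were 54 genes of the Hist1 cluster on chromosome 13, 10 of Hist2 on chromosome 3, 3 of Hist3 on chromosome 11 and 1 of Hist4 on chromosome 6.

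Each nucleosome holds a core of H2A, H2B, H3 and H4, and H1 binds the linker DNA where it enters and leaves. The replication-dependent genes lack introns and are transcribed mainly in S phase, and their mRNAs end in a conserved stem-loop in place of a poly(A) tail. The stem-loop binding protein SLBP holds that structure through processing, export and translation, and the mRNAs are degraded when DNA synthesis stops. Replacement histones such as H3.3 and H2A.Z come from ordinary polyadenylated mRNAs and are made throughout the cell cycle.

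All cells had received EPZ-6438, which inhibits the histone H3 lysine 27 methyltransferase EZH2, at 10 uM. PM_EPZ (n = 3) was primary microglia with the inhibitor alone and PM_EPZ_LPS (n = 3) was primary microglia that also got lipopolysaccharide (LPS), a bacterial product that activates microglia, at 10 ng/ml. BV2_EPZ (n = 2) and BV2_EPZ_LPS (n = 2) were the same treatments of BV2, an immortalised mouse microglial line, and every treatment lasted 4 h. The primary cells came from brains of 3-day-old ICR mice, pooled from 12 animals, were shaken off mixed glial cultures, and were over 92% CD11b-positive by flow cytometry, per the labels. No group lacked the inhibitor among those described, and its effect was not analysed here. The labels do not say whether replicates were separate cultures, and the p-values therefore measure the spread between these samples, which could be technical. In bulk RNA, fewer cells of a kind and less RNA per cell cannot be told apart.

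The stem-loop that sets these mRNAs apart is shown for members that carry several of its forms. The 16 bases of the stem-loop are in capitals, with 5 bases on either side where the gene model holds them. The sequences were read from GENCODE M21 transcripts, positions are those of the capitals on mm10, and a 16-base stem-loop was found in 46 of the 68 gene models. None was found in the models of Hist2h2be, Hist1h2bc and Hist2h3b, which fell with LPS in primary microglia, while the other members that fell had one. It was also missing from models of members that were not called there, such as Hist2h2bb and Hist1h2bn. The model of Hist2h2bb (381 bases) is shorter than its RefSeq gene (493 bases), so absence from a model need not be absence from the gene.
Hist1h1c (H1, plus strand, chr13:23739512-23739527): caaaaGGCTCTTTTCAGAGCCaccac
Hist1h2bg (H2B, plus strand, chr13:23571843-23571858): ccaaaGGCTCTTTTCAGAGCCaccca
Hist1h2bb (H2B, plus strand, chr13:23747203-23747218): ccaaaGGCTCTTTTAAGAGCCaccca
Hist2h2ac (H2A, minus strand, chr3:96220418-96220433): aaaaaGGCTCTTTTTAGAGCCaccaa
Hist1h3g (H3, plus strand, chr13:23535889-23535904): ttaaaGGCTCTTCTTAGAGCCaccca
Hist1h4d (H4, plus strand, chr13:23581950-23581965): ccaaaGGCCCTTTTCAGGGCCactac
Hist1h4i (H4, minus strand, chr13:22040966-22040981): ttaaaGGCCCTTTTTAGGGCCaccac
Hist1h4j (H4, plus strand, chr13:21735437-21735452): ctaaaGGTCCTTTTCAGGACCaccac
The form of Hist1h1c and Hist1h2bg was shared by 3 H1, 10 H2A, 8 H2B and 5 H3 genes. The 12 H4 genes with a stem-loop had none of the forms found in the other classes, and 7 of them had that of Hist1h4d. The stem-loops of Hist1h4d, which rose with LPS in primary microglia, and of Hist1h4f, which did not pass the test, had the same 16 letters.

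Many H2A and H2B genes sit head to head. Where both genes had a RefSeq promoter (GRCm38.p6), 9 such pairs had start sites within 500 bases of each other. Pairs with a gene that had no RefSeq promoter were not counted. Among those left out were Hist1h2ac with Hist1h2bc and Hist2h2ac with Hist2h2be, head to head by RefSeq position. All of these left-out genes fell with LPS in primary microglia. The bases between the starts of 3 pairs are shown on the plus strand because their members' levels are compared below, with every match to 3 promoter motifs in capitals on either strand: the octamer ATTTGCAT, which the factor Oct-1 reads, the TATA box TATAAA and the CCAAT box.
Hist1h2ae and Hist1h2bg (chr13:23571221-23571399): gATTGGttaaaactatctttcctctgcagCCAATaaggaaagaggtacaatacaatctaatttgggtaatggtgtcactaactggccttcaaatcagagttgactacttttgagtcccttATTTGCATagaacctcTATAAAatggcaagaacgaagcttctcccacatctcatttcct
Hist1h2ak and Hist1h2bn (chr13:21753913-21754075): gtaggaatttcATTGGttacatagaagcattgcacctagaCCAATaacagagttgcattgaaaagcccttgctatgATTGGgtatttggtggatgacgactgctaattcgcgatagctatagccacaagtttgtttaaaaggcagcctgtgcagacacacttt
Hist1h2bf and Hist1h2ad (chr13:23574208-23574380): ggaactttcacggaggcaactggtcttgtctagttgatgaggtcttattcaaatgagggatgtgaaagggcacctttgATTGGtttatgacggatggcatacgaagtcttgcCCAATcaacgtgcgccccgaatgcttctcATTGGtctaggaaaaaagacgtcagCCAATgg
In windows of 300 bases around the start sites (250 before and 50 after), 61 members had a RefSeq promoter. The octamer was in 7 of 17 H2A and 6 of 16 H2B promoters and in no H1, H3 or H4 promoter, against 1.74% of all 32851 RefSeq promoters. The CCAAT box was in every H1, H2A, H2B and H3 promoter and in 3 of 12 H4 promoters, against 37.4% of all promoters, and TATAAA in 35 of 61 members against 13.6%. Head-to-head pairs share part of their windows, so their matches are not separate, and these matches describe letters, not binding.

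Gene counts per library ran from 2750988 to 3684012. Members took 1132 to 2089 counts in a primary library and 39125 to 45392 in a BV2 library, and 58 of the 68 had a count in some library. Levels are CPM, counts scaled to library sizes corrected by TMM, on which scale the 3 counts that a 0 still allows are worth 0.845 to 1.23 CPM. The gene Rn45s, a ribosomal RNA precursor, held 15.7% to 51.7% of all gene counts, and PM_EPZ_LPS replicate 1 stood apart from its 2 replicates (chi-square over degrees of freedom 61.1 and 66.1, against 1.52 to 8.76 within the other groups and 2.62 between those 2). Primary libraries also held markers of other brain cells. Summed astrocyte markers were at 896 to 1572 CPM in primary microglia and at 38.0 to 43.0 CPM in BV2, where 8 or 9 of 10 were at 0. Neuron markers summed to 110 to 131 CPM in primary libraries with all 8 at 0 in BV2, fibroblast markers to 111 to 376 CPM with 7 or 8 of 8 at 0 in BV2, and oligodendrocyte lineage markers to 202 to 250 against 25.1 to 28.4 CPM. Endothelial and mural markers summed to 80.7 to 110 against 98.0 to 139 CPM, and neutrophil, monocyte and lymphocyte markers to 7.44 to 13.7 against 0.661 to 1.01 CPM. All 12 microglia markers had counts in every library. What these other cells contribute to the histone values was not tested.

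Reads of near-identical members cannot be told apart, and multimapping reads (7.64% to 11.8% of all) are not in the gene counts. Of the 10 members with no count in any library, 7 had under 20% of their 101-base stretches unique among transcripts, 2 were the Hist2h3c1 and Hist2h3c2 copies and 1 was Hist1h2aa, a testis H2A whose sequence was entirely unique. The testis genes Hist1h1t and Hist1h2ba and the pseudogene Hist3h2bb-ps had under 10 counts over all libraries. The other members' counts are minimum values where copies exist, more so for H2A than for H1, whose 6 genes were 95% to 100% unique.

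Histone mRNA was far more abundant in BV2 cells than in primary microglia. The members together were at 692 ± 38.1 CPM (SD, n = 3) in PM_EPZ and 14032 ± 177 CPM (n = 2) in BV2_EPZ, which is 20.3 times as high. With LPS the sums were 540 ± 94.6 CPM in PM_EPZ_LPS and 12185 ± 1643 CPM in BV2_EPZ_LPS. No primary library exceeded 735 CPM and no BV2 library was under 11023 CPM. All classes shared the direction, but not the size. H1 was 6.06 times as high in BV2_EPZ as in PM_EPZ, H4 23.6 times, H2A 26.0 times, H2B 34.9 times and H3 37.1 times.

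**Figure D1:**
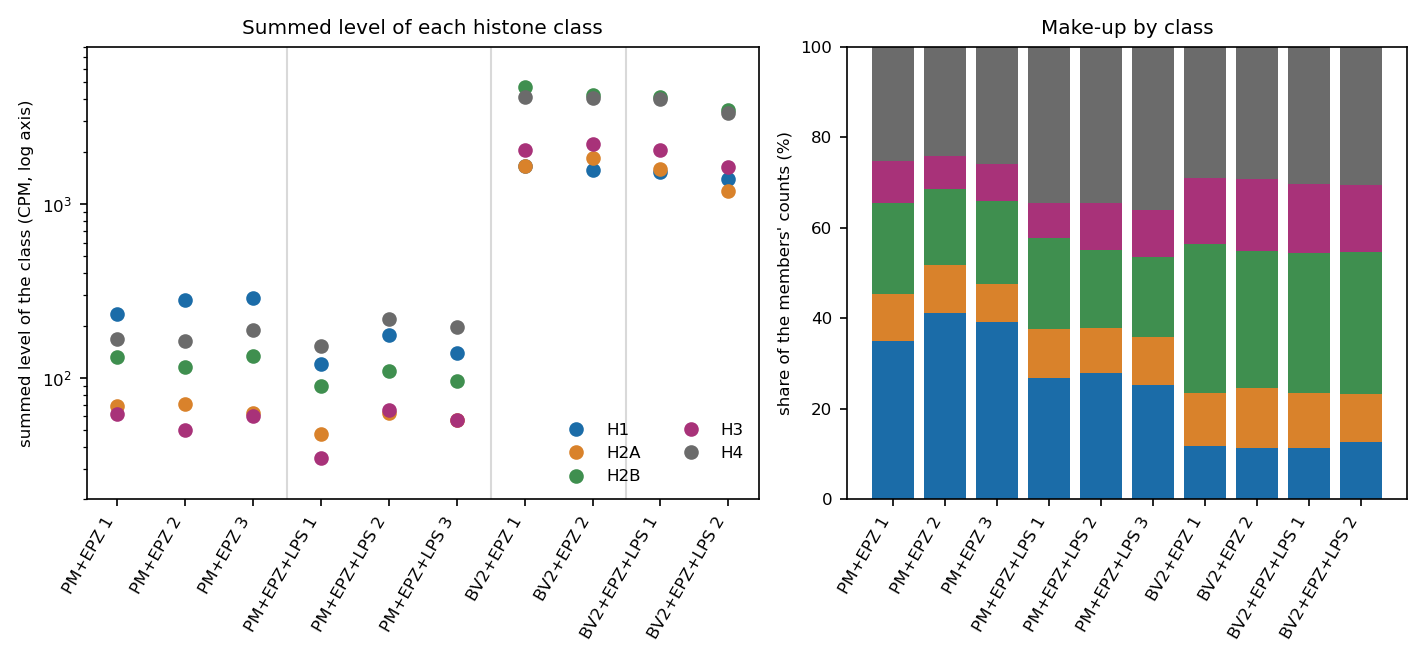
The left panel plots the summed level of each histone class in each of the 10 libraries as points (CPM, log axis) and the right panel the share of each class in the members' counts as stacked bars (percent), with the same colours. H1 was at 35.0% to 41.3% in PM_EPZ, at 25.4% to 27.9% in PM_EPZ_LPS and at 11.3% to 12.6% in the BV2 libraries.

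The make-up of the histone mRNA therefore differed. H1 held 38.5 ± 3.19% of the members' counts in PM_EPZ and 11.5 ± 0.283% in BV2_EPZ, and H2B held 18.4 ± 1.57% and 31.7 ± 1.93%. Few genes carried the primary total: 5 members held 50.4% of it in PM_EPZ (Hist1h1c, Hist1h1e, Hist1h4d, Hist1h2bc and Hist2h2bb), with 22.3% from Hist1h1c alone. In BV2_EPZ it took 12 members to reach 50%, and the highest, Hist2h2bb, held 9.91%. The 10 Hist2 genes made up 9.04 ± 0.200% of the sum in PM_EPZ and 18.5 ± 0.141% in BV2_EPZ, while the 3 Hist3 genes made up 3.54 ± 0.531% and 0.244 ± 0.00171%.

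Between primary microglia and BV2 without LPS, 55 of the 68 members passed the filter on low counts and all 55 were called at an adjusted p under 0.05 (edgeR quasi-likelihood test, Benjamini-Hochberg over all genes), where 74.1% of the 11626 genes tested were called. The members were 53 lower in primary microglia and 2 higher, against 32.5% and 41.5% of all genes, and their median log2 difference was -5.01 against 0.23 for all genes. Of the 55, 15 passed the filter only through BV2, where they are high, and 2 (Hist1h1a and Hist3h2ba) only through primary microglia, so these 17 had to differ, and the counts and medians over all 55 are a description. The 38 that also passed within each cell on its own were all lower in primary microglia without LPS, with a median of -4.92, and 37 of them were lower with LPS, with a median of -4.87. In 53 of the 55 members the groups did not overlap with primary microglia lower, against 37.2% of all genes, and in 2 with primary microglia higher, against 46.9%. Of these 53, BV2 was between 1.67 and 116 times as high, and over 8 times as high for 47. With LPS the comparison gave 54 of 55 called, 52 lower and 2 higher in primary microglia (73.8% of all genes called, 30.7% lower and 43.1% higher), with a median of -5.20 against 0.29, and the groups did not overlap in 52 lower (33.7% of all genes) and 2 higher (46.4%). Members at least 80% unique had a median of -4.36 without LPS (23 tested) and those 20% to 80% unique a median of -5.62 (27 tested). The counts of members called were 54 or 55 and 54 when any 1 library was left out, PM_EPZ_LPS replicate 1 included.

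**Figure D2:**
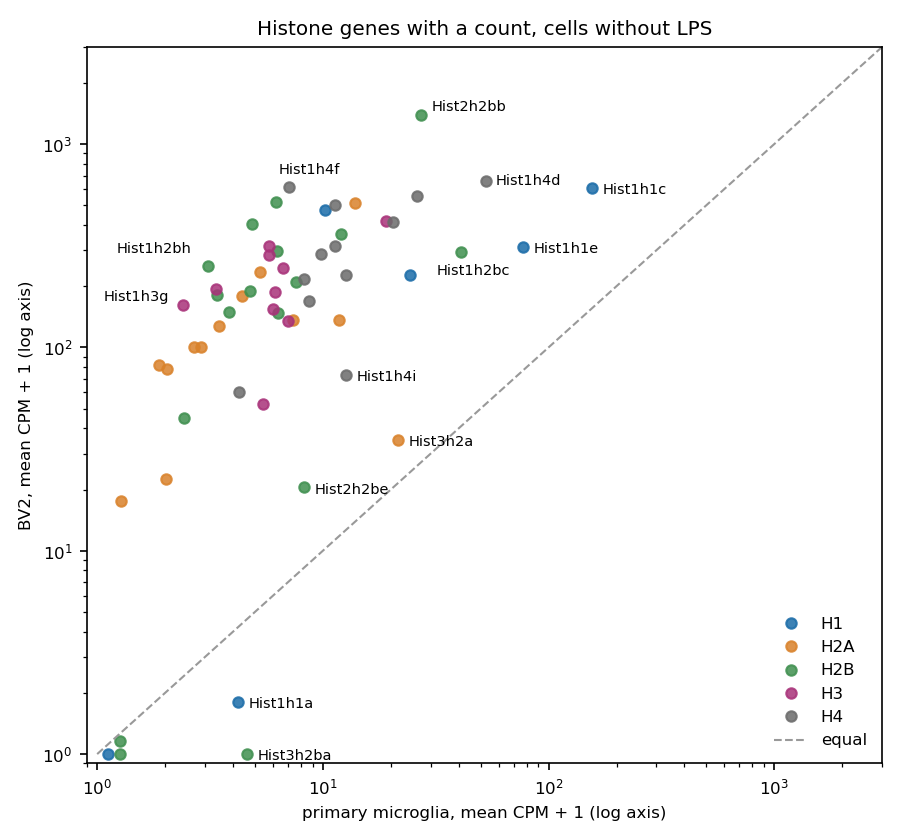
Mean level of each of the 58 members with a count in PM_EPZ (n = 3, x axis) and BV2_EPZ (n = 2, y axis), both as CPM + 1 on log axes and coloured by class; the dashed line marks equal levels. Nearly all points lie above the line, with Hist3h2a (20.5 and 34.2 CPM) close to it and Hist3h2ba and Hist1h1a below it.

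The linker histones spread over a wide range. Hist1h1c, which encodes H1.2, was at 133, 166 and 165 CPM in PM_EPZ and at 619 and 594 CPM in BV2_EPZ. Hist1h1e, which encodes H1.4, was at 67.1, 78.5 and 83.0 against 317 and 303 CPM. Hist1h1b, which encodes H1.5, was at 10.5, 7.36 and 9.85 against 484 and 463 CPM. Every BV2 library lay above every primary library for all 3 genes, with log2 differences of -1.97 ± 0.14 (SE, adjusted p = 5.06e-13), -2.02 ± 0.16 (3.56e-11) and -5.67 ± 0.19 (4.05e-20), all by edgeR's quasi-likelihood test. Within H1 the gap was thus 3.92-fold for Hist1h1c, 4.06-fold for Hist1h1e and 50.8-fold for Hist1h1b. Hist1h1d, which encodes H1.3, lay between them at -3.27 ± 0.18.

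Hist1h1a, which encodes H1.1, went the other way at a low level. It had 5, 7 and 14 counts in PM_EPZ (1.87, 2.86 and 4.93 CPM) and 2 and 3 counts in BV2_EPZ (0.624 and 0.991 CPM), with a log2 difference of 1.97 ± 0.79 (adjusted p = 0.0117, edgeR). The groups did not overlap, but the call was lost with DESeq2 (2.04, adjusted p = 0.0586), without PM_EPZ replicate 3 (1.56, edgeR adjusted p = 0.0773) and without BV2_EPZ replicate 1 (1.66, edgeR adjusted p = 0.0992). With LPS it had 31 counts in primary microglia and 2 in BV2, a ratio of 11.0 (95% counting interval 2.79 to 94.7). Because Hist1h1a passed the filter only through primary microglia, its sizes and p-values are a description.

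Among H2A genes, the median log2 difference was -5.69 over the 13 tested and -5.31 over the 7 that passed the filter in both cells. Hist2h2ac, the H2A gene with the highest level per length in BV2, was at 12.0, 13.1 and 13.4 CPM in PM_EPZ and at 500 and 522 CPM in BV2_EPZ (-5.31 ± 0.17, edgeR adjusted p = 4.20e-20). Hist3h2a, from the small Hist3 cluster, was the member called with the smallest difference. It was at 22.5, 20.0 and 19.0 CPM in PM_EPZ, 21.2, 24.9 and 21.0 in PM_EPZ_LPS, 34.3 and 34.0 in BV2_EPZ and 24.2 and 20.8 in BV2_EPZ_LPS. The groups without LPS did not overlap (-0.74 ± 0.19, edgeR adjusted p = 0.00114), whereas the groups with LPS did (-0.01 ± 0.20, edgeR adjusted p = 0.979).

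Among H2B genes the median was -5.62 over 15 tested and -5.02 over the 9 that passed in both cells. Hist1h2bh was at 2.25, 1.23 and 2.82 CPM in PM_EPZ and at 270 and 233 CPM in BV2_EPZ (-6.85 ± 0.36, edgeR adjusted p = 5.86e-19), but it passed the filter only through BV2, so that its size is a description. Hist2h2bb, the highest member in BV2, was at 27.7, 23.7 and 27.1 against 1451 and 1330 CPM (-5.73 ± 0.16). Hist2h2be was at 5.62, 7.77 and 8.45 against 22.1 and 16.9 CPM (-1.42 ± 0.31, edgeR adjusted p = 1.29e-04), and Hist1h2bc at 35.2, 37.2 and 47.5 against 297 and 292 CPM (-2.88 ± 0.15). All 4 had BV2 above primary microglia in every library without LPS, yet Hist2h2be and Hist1h2bc by less than 8-fold. Hist3h2ba, an H2B gene of the Hist3 cluster, had 12, 6 and 11 counts in PM_EPZ (4.50, 2.45 and 3.87 CPM), 5, 7 and 15 in PM_EPZ_LPS, and none in any BV2 library. Against 3 counts over the BV2 group it was at least 7.57-fold higher in primary microglia without LPS and at least 6.38-fold higher with LPS (edgeR adjusted p = 4.62e-05 and 1.07e-04). Because Hist3h2ba passed the filter only through primary microglia, these sizes and p-values are a description.

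H3 genes had a median of -5.29 over 10 tested and of -5.16 over the 7 that passed in both cells. Hist1h3g, at 1.87, 1.64 and 0.704 CPM in PM_EPZ against 156 and 166 CPM in BV2_EPZ, and Hist1h3a, at 3.75, 3.27 and 6.33 against 48.3 and 54.5 CPM, passed only through BV2. Hist1h3c, the highest H3 gene per length in BV2, was at 4.87, 4.09 and 5.28 against 260 and 309 CPM (-5.89 ± 0.25). H4 genes had a median of -4.45 over 12 tested and of -4.45 over the 11 that passed in both cells. Hist1h4d was at 52.4, 47.4 and 54.9 against 675 and 644 CPM (-3.67 ± 0.14), and Hist1h4f at 4.50, 7.36 and 6.33 against 626 and 605 CPM (-6.66 ± 0.25). These H4 genes encode the same protein and share a stem-loop form, and were close in level in BV2 and far apart in PM_EPZ. Hist1h4i had the smallest H4 difference (-2.63 ± 0.22), at 10.5, 14.3 and 10.2 against 78.6 and 65.8 CPM.

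Per length of the RefSeq gene (61 members with a span of at most 1000 bases), the order of the members changed between the cells. In PM_EPZ Hist1h1c was at 213 CPM per kb, Hist1h4d at 128 and Hist1h1e at 97.4. In BV2_EPZ Hist2h2bb was at 2821 CPM per kb, Hist1h4d at 1641 and Hist1h4f at 1608. Hist1h4d was at rank 2 in both cells, ranked on the mean over the groups of each cell. Hist1h1e was at rank 3 in primary microglia and rank 24 in BV2, Hist3h2a at ranks 7 and 47, and Hist1h4f at ranks 19 and 3.

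**Figure D3:**
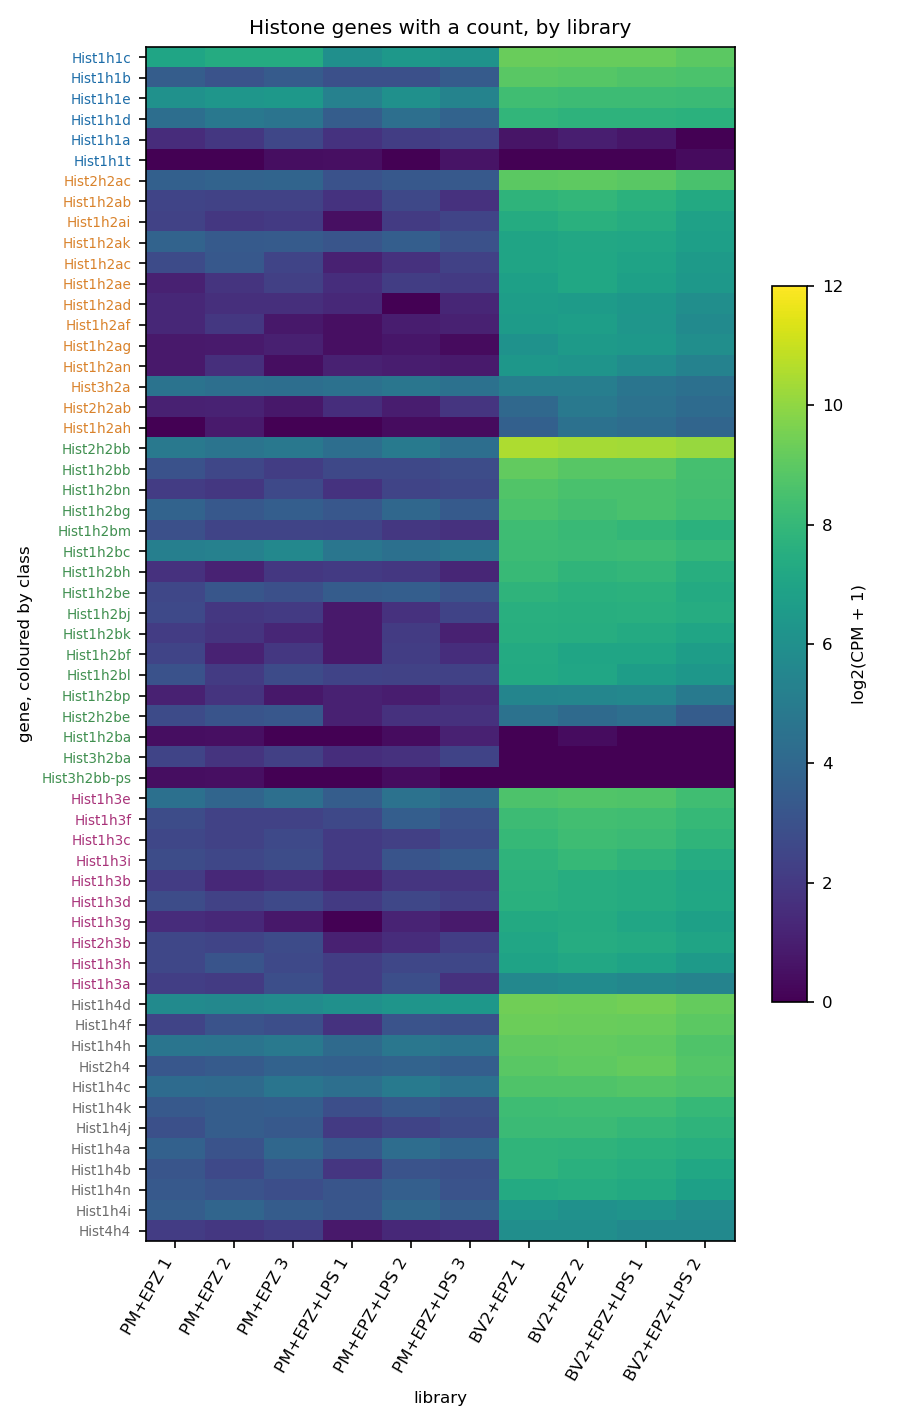
Level of each of the 58 members with a count in every library, as log2(CPM + 1), with genes (rows) grouped and coloured by class and ordered by their mean in BV2_EPZ, and libraries in columns. The 4 BV2 libraries are high for nearly every gene, and in primary microglia Hist1h1c, Hist1h1e, Hist1h4d and Hist1h2bc are the brightest rows.

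Head-to-head partners that share an upstream region did not always share the size of the difference between cells. Both members were tested in 7 of the 9 pairs counted, and the log2 differences of partners lay 0.03 to 3.04 apart, with a median of 0.83. Only Hist1h2ae with Hist1h2bg, Hist1h2bl with Hist1h2ai and Hist1h2ak with Hist1h2bn passed the filter in both cells, lying 0.61, 0.95 and 3.04 apart. The members of the other pairs passed only through BV2, where they are high, so the range and median are a description. Hist1h2bf and Hist1h2ad, whose shared stretch is printed above, were nearly equal at -5.66 and -5.69, both having passed the filter only through BV2. Hist1h2ae and Hist1h2bg, whose shared stretch holds an octamer and a TATAAA that reads toward Hist1h2bg, were at -5.64 and -5.02. Hist1h2ak and Hist1h2bn lay furthest apart, at -3.65 ± 0.20 and -6.68 ± 0.27. Hist1h2ak was at 13.1, 9.40 and 9.85 CPM in PM_EPZ and 128.5 and 143 CPM in BV2_EPZ, and Hist1h2bn at 3.37, 2.86 and 5.28 against 429 and 379 CPM, so that the H2A partner was the higher in each primary library without LPS and the H2B partner in each BV2 library. Unique sequence was 89.8% for Hist1h2ak and 48.8% for Hist1h2bn. H2A and H2B genes with an octamer in the promoter window had a median difference of -5.73 (11 tested) and those without it -5.66 (15 tested). Within primary microglia alone, 9 and 6 of these passed the filter. The rest passed only through BV2, where they are high, so both medians are a description.

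Genes of the replication machinery went the same way. All 30 S phase genes tested were lower in primary microglia without LPS (median log2 difference -3.61), among them Mcm5, a subunit of the replicative helicase, at 12.2 ± 2.78 CPM in PM_EPZ and 321 ± 28.0 CPM in BV2_EPZ, and Tk1, the thymidine kinase of S phase (-5.84 ± 0.33). All 20 mitosis genes were lower as well (median -5.08), Top2a, the DNA topoisomerase of dividing cells, at 8.84 ± 3.13 against 115 ± 27.9 CPM. With LPS the counts were 30 of 30 and 19 of 20, the exception being the proliferation marker Mki67 (-0.72 ± 0.49, edgeR adjusted p = 0.221). Of all genes tested, 32.5% were lower in primary microglia without LPS and 30.7% with it. Within primary microglia alone, only 20 of the 30 S phase genes and 6 of the 20 mitosis genes passed the filter. The rest passed only through BV2, where they are high, so these counts and medians are a description. Ezh2, the target of the inhibitor, was at 18.1 ± 0.756 against 46.5 ± 0.366 CPM without LPS (-1.36 ± 0.19, edgeR adjusted p = 2.17e-07).

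**Figure D4:**
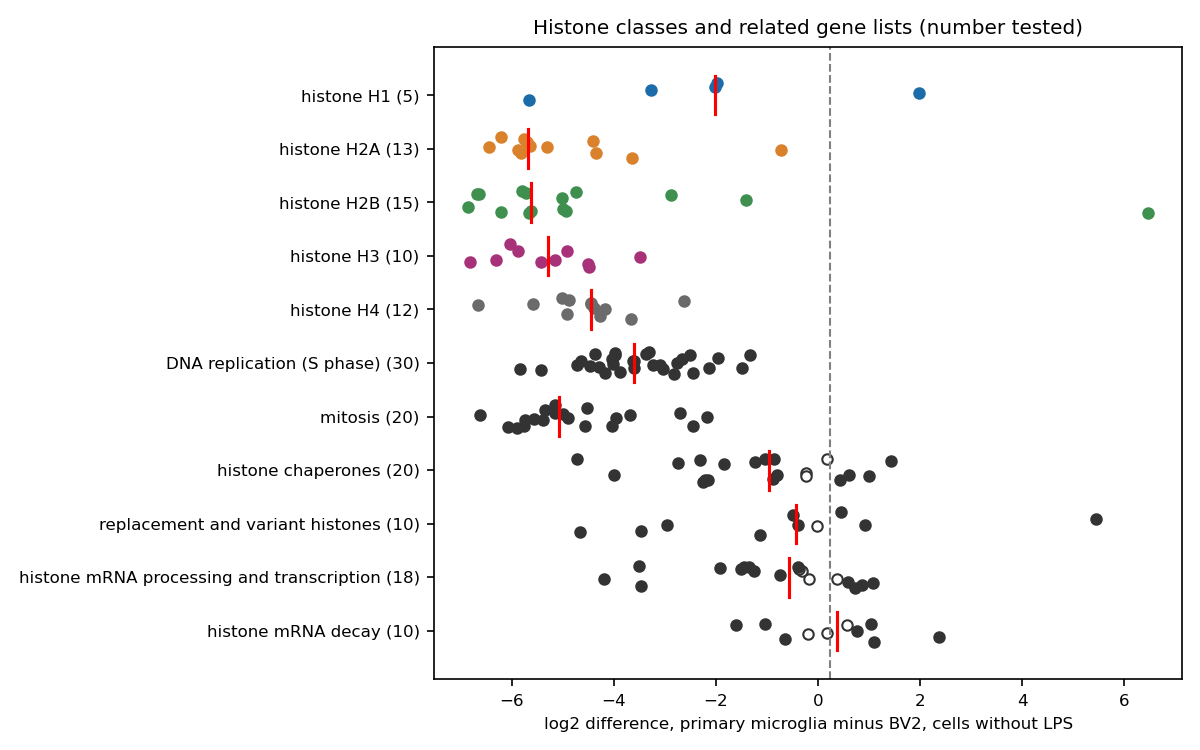
Log2 difference between PM_EPZ and BV2_EPZ (x axis, negative where primary microglia were lower) of each gene tested in the 5 histone classes and in 6 related lists. Filled points passed the test, open ones did not, red bars are medians and the dashed line is the median of all genes tested (0.23). The histone classes, S phase genes and mitosis genes lie at the left (the H2B point far to the right is Hist3h2ba, at 0 in BV2, whose place depends on the fit), and the lists of histone mRNA factors and replacement histones straddle the dashed line.

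The factors that make and process histone mRNA did not move as a block. Of 18 listed genes, 10 were lower in primary microglia without LPS and 4 higher (median -0.57). For this list and the decay and chaperone lists below, the shares of all genes tested were 32.5% lower and 41.5% higher. Within primary microglia alone, 15 of these 18 genes and 16 of the 20 chaperones passed the filter, and the rest passed only through BV2, where they are high. Slbp, which encodes the stem-loop binding protein, was at 10.1 ± 1.79 CPM in PM_EPZ and 12.6 ± 3.24 CPM in BV2_EPZ (-0.32 ± 0.28, edgeR adjusted p = 0.300). Npat, the coactivator of histone transcription, was at 36.3 ± 7.11 and 41.0 ± 2.36 CPM (-0.17 ± 0.19, edgeR adjusted p = 0.411). Casp8ap2, a component of histone locus bodies, was higher in primary microglia (29.2 ± 4.59 against 13.9 ± 2.84 CPM, 1.08 ± 0.25). The largest differences were in the cyclin E genes that drive entry into S phase, Ccne1 (-4.20 ± 0.43) and Ccne2 (-3.51 ± 0.36). Of 10 genes linked to histone mRNA decay, 4 were higher and 3 lower, with Zcchc6, a terminal uridyltransferase, at 2.36 ± 0.22 and Lsm1 at -1.61 ± 0.24. Histone chaperones were 13 lower and 4 higher of 20 (median -0.97), with Asf1b at -4.71 ± 0.26 and Chaf1b, a subunit of the chromatin assembly factor of replication forks, at 3.95 ± 1.65 against 64.7 ± 12.1 CPM.

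Replacement and variant histones went both ways over a wide range (6 lower and 3 higher of 10 tested, median -0.44), where 32.5% of all genes were lower and 41.5% higher. H2afx, the histone phosphorylated at DNA breaks, was at 17.6 ± 2.83 CPM in PM_EPZ and 447 ± 28.5 CPM in BV2_EPZ (-4.67 ± 0.18), and Cenpa, the histone H3 of centromeres, at 8.24 ± 1.67 and 91.0 ± 0.137 CPM (-3.47 ± 0.22). H2afy2, a macroH2A gene, was higher in primary microglia, at 8.78 ± 2.16 against 0.156 ± 0.221 CPM, on 1 count in BV2_EPZ. H3f3b and H3f3a both encode H3.3. H3f3b was at 245 ± 15.3 CPM in PM_EPZ and 321 ± 3.59 CPM in BV2_EPZ (-0.39 ± 0.12, edgeR adjusted p = 0.00653), and H3f3a at 115 ± 9.11 and 254 ± 13.3 CPM (-1.14 ± 0.14). H2afz, which encodes H2A.Z, was at 86.9 ± 13.2 and 674 ± 43.2 CPM (-2.95 ± 0.14). H1f0, a linker histone of non-dividing cells, was higher in primary microglia at 91.3 ± 11.3 against 66.9 ± 0.241 CPM (0.45 ± 0.16, edgeR adjusted p = 0.0161). Without LPS the summed replicative members were 692 CPM in primary microglia, about the sum of the 11 replacement and variant genes (622 to 695 CPM), and 14032 CPM in BV2, where the variants summed to 1885 to 2003 CPM.

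LPS changed some histone genes of primary microglia, chiefly downward. H1 genes led by level: Hist1h1c, Hist1h1e and Hist1h1d fell, and Hist1h4d was the only member that rose. Of the 40 members that passed the filter, 10 were called, 9 lower and 1 higher with LPS, where 39.2% of all 10664 genes tested were called (17.8% lower and 21.4% higher). The share of members called in either direction, 25.0%, was thus below that of all genes. The median log2 fold change was -0.23 against -0.03 for all genes, and 26 of 40 estimates were below 0. In 11 members the groups did not overlap with LPS lower (22.4% of all genes) and in 1 with LPS higher (26.6%). The H1 sum was at 232, 281 and 287 CPM in PM_EPZ and 119, 176 and 138 CPM in PM_EPZ_LPS, while the H4 sum was at 167, 163 and 190 and then 153, 218 and 196 CPM. H1 groups did not overlap, H4 groups did, and the H1 share went from 38.5 ± 3.19% to 26.7 ± 1.27% as that of H4 went from 25.0 ± 0.926% to 34.9 ± 0.873%.

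Hist1h1c, at 133, 166 and 165 CPM without LPS, was at 61.5, 82.6 and 69.7 CPM with it. The groups were well apart, and the log2 fold change was -1.13 ± 0.14 (edgeR adjusted p = 1.60e-06). Hist1h1e went from 67.1, 78.5 and 83.0 to 38.0, 63.8 and 40.8 CPM (-0.69 ± 0.18, edgeR adjusted p = 0.00664), without overlap. Hist1h1d went from 19.5, 26.6 and 23.9 to 10.6, 19.8 and 13.3 CPM (-0.68 ± 0.23, edgeR adjusted p = 0.0253), with LPS replicate 2 just above the lowest control. Hist1h1b, at 10.5, 7.36 and 9.85 and then 6.66, 6.70 and 9.92 CPM, overlapped (-0.25 ± 0.28, edgeR adjusted p = 0.503).

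Hist2h2be gave the largest fold change of the 40, from 5.62, 7.77 and 8.45 CPM to 1.18, 2.23 and 2.27 CPM (-1.89 ± 0.40, edgeR adjusted p = 4.79e-04), on 58 and 18 counts. Hist1h2bc, also an H2B gene, fell from 35.2, 37.2 and 47.5 to 25.5, 20.4 and 24.9 CPM (-0.78 ± 0.17, edgeR adjusted p = 0.00129). Both were free of overlap, and both carry long gene models in RefSeq (spans of 2667 and 8282 bases). A long model was not particular to H2B genes that fell. Hist1h2be, with a span of 37455 bases, had mean levels of 6.58 CPM in PM_EPZ and 9.47 CPM in PM_EPZ_LPS and was not called. Hist2h2be and Hist1h2bc had no stem-loop in their GENCODE models, and neither had Hist2h3b, while the other members that fell had one. Whether span or stem-loop bears on the response was not tested. The H2A genes called were Hist1h2ac, from 5.62, 8.99 and 4.57 to 1.18, 2.23 and 3.97 CPM (-1.29 ± 0.43, edgeR adjusted p = 0.0195), and Hist2h2ac, from 12.0, 13.1 and 13.4 to 7.05, 8.93 and 9.07 CPM (-0.62 ± 0.24, edgeR adjusted p = 0.0469). Of the H3 genes 1 of 7 tested was called, Hist2h3b, from 4.87, 4.50 and 5.63 to 1.18, 1.91 and 3.69 CPM (-1.08 ± 0.42, edgeR adjusted p = 0.0442, 22.9% unique sequence).

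H4 genes went both ways. Hist1h4d rose from 52.4, 47.4 and 54.9 to 63.9, 75.0 and 81.4 CPM (0.50 ± 0.14, edgeR adjusted p = 0.00651), with all 3 LPS libraries above all 3 controls. Hist1h4j fell from 6.74, 10.6 and 9.15 to 3.13, 4.47 and 5.95 CPM (-0.93 ± 0.32, edgeR adjusted p = 0.0240). The other 9 H4 genes tested did not pass, Hist1h4c at 0.24 ± 0.21 and Hist1h4h at -0.20 ± 0.19 among them.

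**Figure D5:**
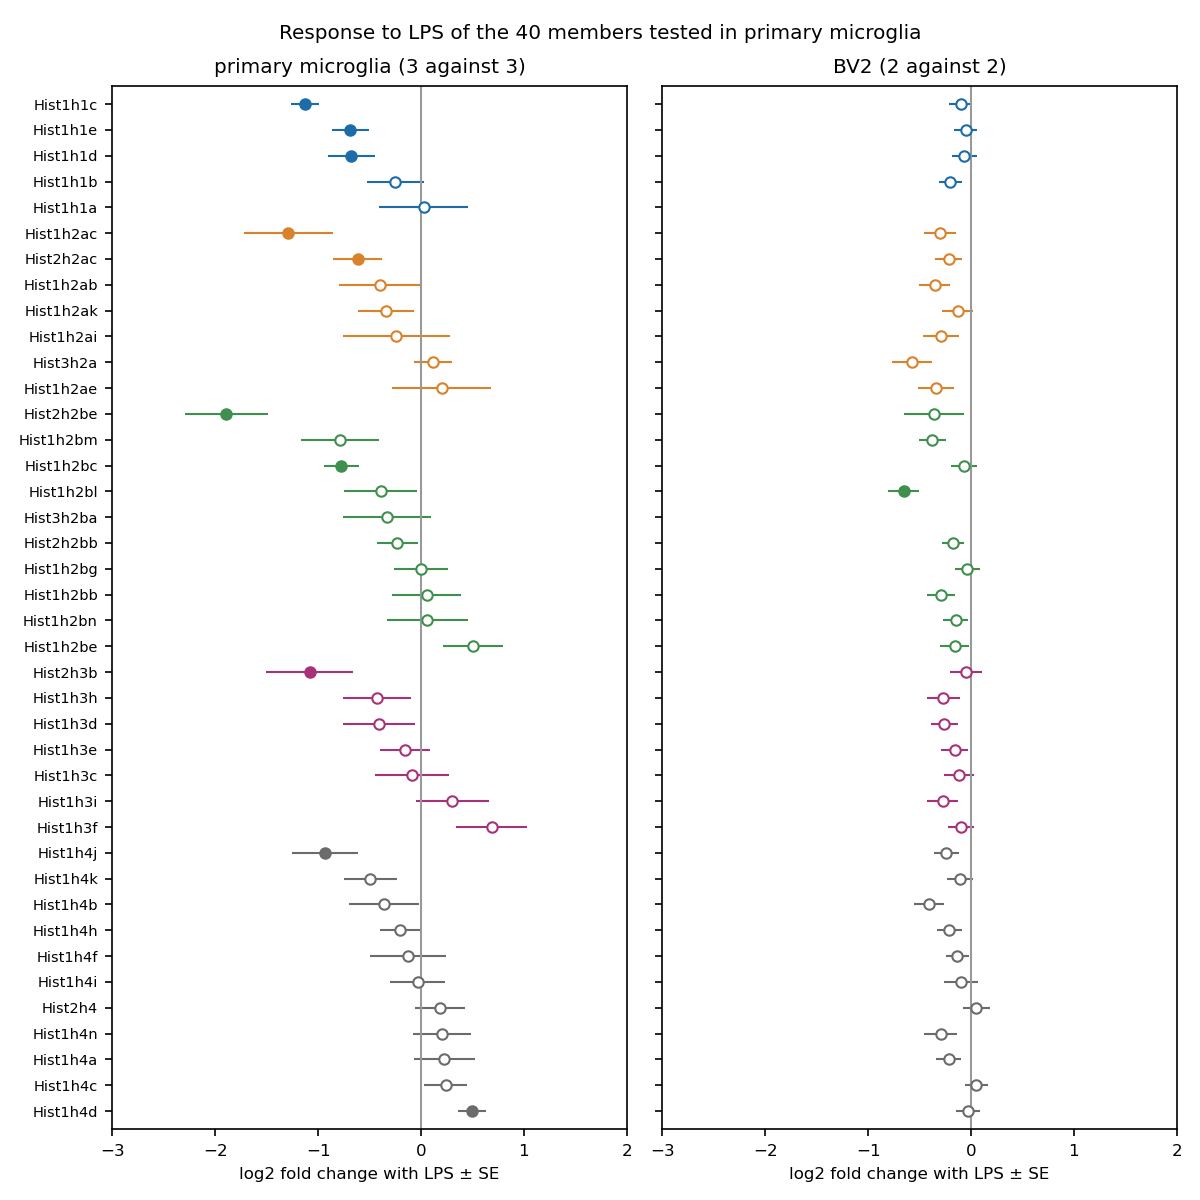
Log2 fold change with LPS (x axis, bars are SE) of the 40 members tested in primary microglia, left, and of those of them tested in BV2 cells, right, grouped and coloured by class from H1 at the top to H4. Filled points passed the test. In primary microglia 9 filled points lie left of 0 and Hist1h4d right of it; in BV2 cells nearly all points lie just left of 0 and only Hist1h2bl is filled.

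The calls for Hist1h1c, Hist1h1e, Hist1h2bc, Hist2h2be and Hist1h4d held in all 13 alternatives, which were DESeq2, RLE scaling, no filter, unstranded counts, no structural RNAs, all 10 libraries in 1 fit, the replicate block and leaving out each of the 6 libraries. The others did not. Without PM_EPZ replicate 2 the count was 5, as with DESeq2, and without PM_EPZ replicate 3 or PM_EPZ_LPS replicate 2 it was 6. Without PM_EPZ_LPS replicate 1, which stood apart, 10 were called, with Hist2h3b (-0.82, edgeR adjusted p = 0.110) and Hist2h2ac (-0.51, edgeR adjusted p = 0.102) lost and Hist1h3f (0.88, edgeR adjusted p = 0.0199) and Hist1h2bm (-1.04, edgeR adjusted p = 0.0405) gained. Hist1h2ac lost its call without PM_EPZ replicate 2 (-0.97, edgeR adjusted p = 0.132) or PM_EPZ_LPS replicate 2 (-1.18, 0.0626). Hist1h4j lost it without either of those (-0.79, edgeR adjusted p = 0.111, and -0.90, 0.0631) or PM_EPZ replicate 3 (-0.91, 0.0686). Hist1h1d lost it without PM_EPZ replicate 2 (-0.57, edgeR adjusted p = 0.121), PM_EPZ replicate 3 (-0.66, 0.0721) or PM_EPZ_LPS replicate 3 (-0.60, 0.109). Hist2h3b lost it in 8 and Hist2h2ac in 10 of the 13. Rn45s, whose part in these values was not tested, held 40.9% to 51.7% of gene counts in PM_EPZ and 15.7% to 43.7% in PM_EPZ_LPS, the highest in replicate 1. Of 5 short structural RNAs tested 2 rose with LPS, against 21.4% of all genes, and with that list left out 9 members were called.

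The related lists were mixed in primary microglia, where 21.4% of all 10664 genes tested were called higher and 17.8% lower with LPS. Of 20 S phase genes tested, 3 rose and 4 fell with LPS. Pcna, the sliding clamp of DNA polymerase, rose from 57.3 ± 16.2 to 121 ± 9.13 CPM (1.06 ± 0.16, edgeR adjusted p = 7.29e-05), and Mcm3 fell (-1.31 ± 0.42). Of 6 mitosis genes tested Mki67 alone was called (1.35 ± 0.35, edgeR adjusted p = 0.0116), at 12.7, 12.7 and 8.80 CPM without and 46.2, 18.8 and 24.1 CPM with LPS. Slbp (0.09 ± 0.25, edgeR adjusted p = 0.797) and Npat (-0.02 ± 0.17, edgeR adjusted p = 0.949) did not pass. The processing genes called were Cpsf2 (1.29 ± 0.14), Cstf2 (0.46 ± 0.15), Cdk2 (-0.96 ± 0.22) and Pou2f1 (-0.87 ± 0.17), which encodes the octamer-binding Oct-1. Among 10 decay genes 4 rose and 1 fell, and Dcp2, the mRNA decapping enzyme, rose from 44.7 to 258 CPM (2.52 ± 0.14). H3f3b rose from 251, 228 and 257 to 679, 747 and 818 CPM (1.60 ± 0.11, edgeR adjusted p = 7.08e-10), H1f0 fell (-0.64 ± 0.15) and Cenpa fell (-1.78 ± 0.39). Of 16 chaperones tested 3 rose and 2 fell, with Daxx, which deposits H3.3, at 4.44 ± 0.16 and Hira, another H3.3 chaperone, at -0.65 ± 0.20. Ezh2 did not pass (-0.29 ± 0.21, edgeR adjusted p = 0.281).

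In BV2 cells 2 histone genes passed the test for LPS, both lower with it. Their share, 3.77%, was below the 5.2% of all genes called in either direction and above the 1.51% called lower. The sum of the members was at 14157 and 13907 CPM in BV2_EPZ and 13346 and 11023 CPM in BV2_EPZ_LPS, without overlap. Of 53 members tested 2 were called, both lower, where 5.2% of all 9321 genes tested were called (1.51% lower and 3.69% higher). By edgeR 10 members had an unadjusted p under 0.05. Estimates were below 0 for 50 of the 53, with a median of -0.20 against -0.01 for all genes, and in 27 the groups did not overlap with LPS lower (24.9% of all genes), in 0 with LPS higher (17.1%). Hist1h2bl, an H2B gene, was at 157 and 135 CPM without LPS and 101 and 80.3 CPM with it (-0.65 ± 0.15, edgeR adjusted p = 0.0262). Hist1h2an, an H2A gene, was at 81.4 and 73.7 and then 55.7 and 38.3 CPM (-0.70 ± 0.18, edgeR adjusted p = 0.0493). Only 38.4% and 16.7% of their sequence was unique among transcripts. None of the 4 H1, 10 H3 and 12 H4 genes tested was called, and neither was any gene of the S phase, mitosis, processing, decay or chaperone lists. Among the replacement histones H3f3b rose (0.47 ± 0.12, edgeR adjusted p = 0.0421).

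BV2_EPZ_LPS replicate 2 had the lowest member sum of the 4 libraries, and the count of calls moved with single libraries. Without BV2_EPZ_LPS replicate 1 it was 20, all lower. Without BV2_EPZ replicate 1 it was 0, Hist1h2bl at -0.53 (edgeR adjusted p = 0.344) and Hist1h2an at -0.61 (0.249). It was 1 without BV2_EPZ replicate 2, where Hist1h2an was at -0.75 (edgeR adjusted p = 0.0671), and 1 without BV2_EPZ_LPS replicate 2, where Hist1h2an was at -0.43 (edgeR adjusted p = 0.160). In each such fit the group left with 1 library is taken to vary like the other group.

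Whether the response to LPS differed between the cells was tested as a difference of the 2 log2 fold changes over all 10 libraries. It was called for 4 of 55 members, 3 more negative in primary microglia and 1 more positive, where 12.2% of all 11626 genes were called (3.54% more negative and 8.65% more positive). Hist1h1c differed by -0.98 ± 0.19 (edgeR adjusted p = 6.09e-04), its levels in BV2 being 619 and 594 CPM without and 597 and 509 CPM with LPS. Hist1h2bc differed by -0.66 ± 0.22 (edgeR adjusted p = 0.0421), at 297 and 292 and then 297 and 253 CPM in BV2. Hist2h2be differed by -1.49 ± 0.52 (edgeR adjusted p = 0.0495), at 22.1 and 16.9 and then 19.8 and 10.4 CPM. Hist1h4d differed by 0.57 ± 0.19 (edgeR adjusted p = 0.0490), at 675 and 644 and then 693 and 573 CPM. The groups overlapped in BV2 for all 4, and none passed the test there. Hist1h1e (-0.59 ± 0.23, edgeR adjusted p = 0.105) and Hist1h1d (-0.57 ± 0.26, edgeR adjusted p = 0.176) did not pass the test of the difference. Without PM_EPZ_LPS replicate 2 both were called (-0.86, edgeR adjusted p = 0.00415, and -0.84, 0.0288), and Hist1h1e was also called when no gene was filtered out (-0.58, edgeR adjusted p = 0.0479) and under the replicate block (-0.62, 0.0232). Single libraries decided much of this count, which was 1 (Hist1h1c) without PM_EPZ replicate 2, PM_EPZ replicate 3, BV2_EPZ replicate 1 or BV2_EPZ replicate 2, 2 without BV2_EPZ_LPS replicate 1, and 5 without PM_EPZ_LPS replicate 1, where Hist1h3f joined (0.92, edgeR adjusted p = 0.0404).

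The comparison of the cells without LPS and that of LPS within primary microglia share the PM_EPZ libraries, so their values are set side by side without a test. The 9 members that fell with LPS lay from -5.31 to -1.42 between the cells. Hist2h2be, Hist1h1c, Hist1h1e, Hist1h2bc and Hist1h1d, with log2 differences between the cells of -1.42, -1.97, -2.02, -2.88 and -3.27, had LPS fold changes of -1.89, -1.13, -0.69, -0.78 and -0.68. Hist1h2ac, Hist2h3b, Hist1h4j and Hist2h2ac, at -4.41, -4.92, -5.01 and -5.31 between the cells, had -1.29, -1.08, -0.93 and -0.62. Hist1h4d, at -3.67, had 0.50. Members that did not pass with LPS lay at both ends too, among them Hist3h2a (-0.74 between the cells, 0.11 ± 0.18 with LPS) and Hist1h2bn (-6.68 and 0.06 ± 0.40).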

How the data were processed

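Strand-specific, rRNA-depleted libraries were primed at random and sequenced as paired reads, per the labels' protocols. The authors' deposited files give raw read counts per gene symbol. The submitters' processing notes name CASAVA 1.8.2, Trimmomatic 0.33, STAR 2.5.1, DESeq2 and mm10; these sources do not name the gene annotation. The reverse-strand counts were used. Rows for unmapped, multimapping, ambiguous and no-gene reads (together 70.4% to 79.5% of reads) stayed out of library sizes and tests.

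Genes were kept by filterByExpr (minimum count 10, minimum total 15), scaled by TMM and tested with edgeR 4.0.16 (quasi-likelihood, robust; limma 3.58.1, R 4.3.3), with Benjamini-Hochberg adjustment over all genes and a threshold of 0.05. LPS was tested within each cell (6 and 4 libraries), and the cells and the difference of responses in 1 fit over 10 libraries. CPM came from the 10-library scaling, and intervals cover counting error only. The members and gene lists were chosen with earlier results of these data known. Members named were those called (at most 10 in each direction by size of change), the 5 highest in each cell and the highest of each class, and of each list at most 5 called genes and some set ones such as Slbp and Npat; others, among them partners of pairs and members with small differences, were chosen after their values were seen. Alternatives were DESeq2 1.42.0, RLE scaling, no filter, unstranded counts, no structural RNAs, for LPS a fit over all 10 libraries, a replicate block and leaving out each library. The procedure was tested on simulated data with 100 genes changed by 1 log2 unit. It recovered 76 for LPS in primary microglia, 68 for LPS in BV2 and 34 for the difference of responses. Between the cells it recovered 64 without and 63 with LPS. Members that did not pass are therefore not shown to be unchanged.

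Same-numbered libraries did not deviate together in every pair (correlations 0.195, -0.104 and 0.225 in primary microglia), so they were not treated as paired. Promoters and spans came from RefSeq GRCm38.p6 (67 members matched) and stem-loops from GENCODE M21.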

Additional observations from a re-analysis of the deposited data

Results flagged for a closer look

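Across the 55 members tested, the difference between the LPS responses of primary microglia and BV2 cells passed edgeR's test for 4. Hist1h1c had a difference of -0.98 (adjusted p = 6.09e-04), and lay below all 3 PM_EPZ libraries in 3 of 3 PM_EPZ_LPS libraries. For Hist1h2bc the difference was -0.66 (edgeR adjusted p = 0.0421), for Hist2h2be -1.49 (0.0495) and for Hist1h4d 0.57 (0.0490), each again with no overlap in primary microglia. The call for Hist1h1c held in all 16 alternatives, with values from -1.11 to -0.85, while those for Hist1h2bc, Hist2h2be and Hist1h4d were lost in 7, 8 and 11 of them.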

How the results depend on the processing

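For the members followed one by one, the direction held under every alternative where the main test had called them. These were the called members, at most 10 in each direction of a comparison, and the highest members. The other members called between the cells, Hist1h1b and Hist3h2a among them, were not followed one by one. The members called in primary microglia with LPS numbered 10, and 5 with DESeq2 (5 to 10 leaving out 1 library). In BV2 with LPS there were 2, and 1 each with DESeq2, RLE scaling or no structural RNAs (0 to 20 leaving out 1 library). For the difference of responses there were 4, and 2 with DESeq2 (1 to 5 leaving out 1 library: 1 without PM_EPZ replicate 2, PM_EPZ replicate 3, BV2_EPZ replicate 1 or BV2_EPZ replicate 2, 2 without BV2_EPZ_LPS replicate 1, 5 without PM_EPZ_LPS replicate 1). Between the cells the counts stayed at 54 to 55 without and at 54 with LPS. Where no value shows it, the cause was not tested. With the replicate number as a block 10, 3, 5, 55 and 54 members were called, in the order above with the cells last; the numbers do not pair the samples. Members with few counts in primary libraries (1132 to 2089 in all) limit what LPS could show there.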
